A study of Mus musculus with 16 samples.

Results

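Dendritic cells are the lung's antigen-presenting cells, and 2091 of them, 2.60% of the 80449 cells in the deposited data, carried that label in the authors' cell annotation and are described here. They came from mouse lungs after 6-OHDA, BIBO3304 or vehicle, with or without seeded pancreatic ductal adenocarcinoma (PDAC) cells, in 15 samples that held 58 to 277 dendritic cells each. The question the design poses is how removal of sympathetic nerves, or of signalling by neuropeptide Y through its receptor NPY1R, alters lungs before and after tumor cells are seeded. 6-OHDA is a toxin that destroys sympathetic nerve endings, which take it up, and BIBO3304 is an NPY1R antagonist. The 6-OHDA-PDAC group had 2 samples with 163 dendritic cells, the BIBO3304-PDAC group 2 samples with 372 and the vehicle-PDAC group 2 samples with 465. Without PDAC cells, the 6-OHDA group had 3 samples with 243 dendritic cells, the BIBO3304 group 3 samples with 248 and the vehicle group 3 samples with 600. The sources used here do not give strain, sex, age, dose, the interval after treatment or the origin of the PDAC cells. No source says that numbered samples are separate mice, so p-values measure the spread between samples.

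Lung dendritic cells fall into types with separate tasks. Conventional type 1 cells (cDC1) carry Xcr1 and Clec9a and present antigen from dead cells to CD8 T cells, while type 2 cells (cDC2) mostly serve CD4 T cells. Plasmacytoid cells, held in their identity by the transcription factor Tcf4, carry the surface receptor Siglech and make type I interferon when their endosomal receptors meet nucleic acid. On maturation, conventional cells gain the chemokine receptor Ccr7, which leads them along lymphatic vessels to lymph nodes, and the actin-bundling protein Fscn1.

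Live cells were sorted, fixed and barcoded by split-pool indexing, and the 16 deposited sublibraries are technical splits of a pool that held all samples. The median dendritic cell held 2203 transcripts and 887 genes, and the summed counts per sample ran from 190115 to 881695 transcripts. Group depth differed, with sample medians of 2095.5 to 2801 transcripts a cell in 6-OHDA-PDAC, 1580 to 2469 in BIBO3304-PDAC, 2289 to 3734 in vehicle-PDAC, 2025 to 2889 in 6-OHDA, 2450 to 4155 in BIBO3304 and 1582 to 2010 in vehicle. Cell names, which carry the sublibrary, were unique among the dendritic cells, which does not test how well samples were separated. Of the samples with PDAC cells, 1 (vehicle-PDAC sample 2) held 0 annotated cancer cells, against 33 to 75 in the others.

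The label held for its 4 defining markers, though other dendritic cell genes were not highest there. Among the 22 annotated types, dendritic cells ranked 1st for all 4 defining markers. Flt3, the receptor for the growth factor that sustains dendritic cells, was at 211.6 CPM (counts scaled to a common library total) in dendritic cells, against 15.6 CPM in interstitial macrophages, the next type. Siglech was at 343 CPM in dendritic cells and 9.10 CPM in interstitial macrophages, and Xcr1 at 61.5 CPM in dendritic cells and 0.900 CPM in ciliated cells. Ccr7 was less exclusive, with 292 CPM in dendritic cells and 208 CPM in B cells. The cDC2 gene Cd209a was lower in dendritic cells, at 16.5 CPM, than in interstitial macrophages, at 38.0 CPM, as was Clec10a, at 32.5 CPM in dendritic cells and 54.7 CPM in interstitial macrophages. H2-Aa, an MHC class II chain, was near equal, at 744 CPM in dendritic cells and 760.2 CPM in interstitial macrophages. Itgax ranked 4th, at 125 CPM in dendritic cells and 313 CPM in alveolar macrophages. Zbtb46 ranked 2nd, at 162 CPM in dendritic cells and 306 CPM in aerocyte capillary endothelial cells. Ciita ranked 3rd and Kit and H2-Ab1 2nd, while H2-Eb1 and Cd74 ranked 1st.

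Clustering of the 2091 cells gave 12 sub-clusters, named where at least 3 genes of a type's list stood out. There were 765 cDC1-like cells in 2 sub-clusters, 463 plasmacytoid-like cells in 2 sub-clusters (16 of 18 plasmacytoid genes standing out in each), 197 mature-like cells (13 of 13 maturation genes) and 106 cDC2-like cells (5 of 10 genes). The other 6 sub-clusters stayed unnamed. Among them, 1 with 109 cells stood out for 9 of 10 alveolar macrophage genes, another with 205 cells for all 6 fibroblast genes and another with 45 cells for all 6 endothelial genes, so the annotation includes cells with transcripts of other lineages. Another 68 cells were led by Top2a and Cenpe, genes of dividing cells.

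Dendritic cells made up 2.37%, 2.20% and 1.65% of all cells in the 6-OHDA samples and 1.71%, 2.26% and 1.69% in the BIBO3304 samples, against 2.76%, 2.92% and 2.57% in the vehicle samples. Every 6-OHDA and BIBO3304 sample lay below every vehicle sample. As a share of immune cells the groups overlapped, at 3.76% to 4.80% in 6-OHDA, 4.17% to 5.74% in BIBO3304 and 4.41% to 5.40% in vehicle. The means were 2.07% ± 0.378 with 6-OHDA, 1.89% ± 0.326 with BIBO3304 and 2.75% ± 0.175 with vehicle (SD, n = 3 each). In edgeR's quasi-likelihood test on cell numbers, adjusted over the 22 types, neither difference passed 0.05, with log2 fold changes of -0.41 ± 0.24 (SE, adjusted p = 0.396) for 6-OHDA and -0.55 ± 0.24 (SE, adjusted p = 0.104) for BIBO3304. With alveolar macrophages left out of the denominator, the difference in dendritic cell share, BIBO3304 against vehicle, was -0.96 and passed (adjusted p = 0.0198). The dendritic cell share, 6-OHDA against vehicle, then differed by -0.74 and did not pass (adjusted p = 0.0665). Over immune cells the difference was -0.020 for BIBO3304 and -0.19 for 6-OHDA, and neither passed. The two-sided exact permutation p over all cells was 0.1 for each, the smallest that 3 against 3 samples allow.

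With PDAC cells the shares were 1.82% and 2.60% in 6-OHDA-PDAC, 3.38% and 3.95% in BIBO3304-PDAC, and 2.76% and 3.03% in vehicle-PDAC. Neither drug group differed from vehicle-PDAC past the threshold (log2 fold change -0.39 ± 0.30 SE, adjusted p = 0.366 for 6-OHDA-PDAC, and 0.34 ± 0.29 SE, adjusted p = 0.651 for BIBO3304-PDAC). The share that changed was that of BIBO3304-PDAC against BIBO3304 without PDAC cells, 3.67% ± 0.398 (SD, n = 2) and 1.89% ± 0.326 (SD, n = 3), with a log2 ratio of 0.96 ± 0.27 (SE) at an adjusted p of 0.0139. Over immune cells alone that difference was 0.38 on the log2 scale and did not pass. The vehicle-PDAC and vehicle shares overlapped (log2 fold change 0.07, adjusted p = 0.961), and the test of whether the BIBO3304 effect itself depended on PDAC cells gave a difference of 0.89 on the log2 scale with an adjusted p of 0.158.

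Cells marked by plasmacytoid genes made up a larger share of the dendritic cells in each drug group than in the vehicle group of the same seeding state. To compare samples of unequal depth, each cell was thinned to 500 transcripts, which left out 33 cells, and a cell was counted as plasmacytoid-marked when it held at least 2 of 18 plasmacytoid genes. Such cells made up 24.2%, 38.9% and 34.5% of dendritic cells in the 6-OHDA samples, 19.7%, 19.8% and 21.6% in the BIBO3304 samples, and 12.5%, 12.6% and 15.2% in the vehicle samples. The 3 groups did not overlap, with 6-OHDA highest and vehicle lowest, but with at least 3 genes required 6-OHDA sample 1, at 13.2%, lay below the BIBO3304 samples, of which the lowest was 13.95%. With PDAC cells the shares were 35.7% and 57.8% in 6-OHDA-PDAC, 30.6% and 35.8% in BIBO3304-PDAC, and 16.6% and 17.2% in vehicle-PDAC. Both drug groups lay above vehicle-PDAC. The mean with PDAC cells lay above that without in each pair of groups, although the 6-OHDA-PDAC and 6-OHDA ranges overlapped, and with at least 3 genes required vehicle-PDAC, at 6.89%, was below vehicle, at 7.94%. The drug groups stayed clear of the vehicle group of the same seeding state with at least 1 or 3 genes, at 1000 transcripts and without thinning. Across seeding states they did not: at 1000 transcripts BIBO3304 averaged 21.7% ± 3.21 (SD, n = 3) and vehicle-PDAC 21.96% ± 5.03 (SD, n = 2), and with at least 1 gene 35.9% ± 2.22 and 35.7% ± 2.85, with overlap.

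The mean plasmacytoid-marked share was 32.5% ± 7.55 with 6-OHDA and 13.4% ± 1.53 with vehicle (SD, n = 3 each, two-sided exact permutation p = 0.1). It was 20.4% ± 1.07 with BIBO3304 (SD, n = 3, exact p = 0.1 against vehicle). The mean was 46.7% ± 15.6 in 6-OHDA-PDAC and 16.9% ± 0.454 in vehicle-PDAC (SD, n = 2 each, exact p = 0.33, the smallest possible). BIBO3304-PDAC stood at 33.2% ± 3.70 (SD, n = 2), against 20.4% ± 1.07 in BIBO3304 (SD, n = 3, exact p = 0.2, the smallest possible). After adjustment over the 32 such tests no p lay below 0.64. The exact 95% Clopper-Pearson interval was 46.9% to 68.1% in 6-OHDA-PDAC sample 2, the highest share, and 8.40% to 17.7% in vehicle sample 1, the lowest. The same measure over all samples marked 23.5% of dendritic cells and 0.958% of 14405 alveolar fibroblasts, which are not plasmacytoid cells. Not every gene of the list is exclusive to dendritic cells, as Siglech nearly is. Tcf4 was at 1509 CPM in dendritic cells and 1444 CPM in general capillary endothelial cells, and Runx2 at 383 CPM in dendritic cells and 387 CPM in monocytes. By sample the fibroblast share ran from 0.23% in BIBO3304 sample 3 to 3.69% in BIBO3304-PDAC sample 2, and was at most 1.59% in the others. Without thinning it marked 39.6% of dendritic cells, at a median of 2203 transcripts, and 12.1% of the fibroblasts, at a median of 2653.5 transcripts.

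Set against all lung cells, plasmacytoid-marked cells were 0.656% ± 0.164 with 6-OHDA, 0.378% ± 0.0522 with BIBO3304 and 0.362% ± 0.0231 with vehicle (SD, n = 3 each). The dendritic cells without that mark were 1.38% ± 0.334 of all cells with 6-OHDA, 1.49% ± 0.253 with BIBO3304 and 2.35% ± 0.202 with vehicle. In the BIBO3304 lungs the marked cells were thus as frequent among all cells as in vehicle lungs and the unmarked cells less so, while in the 6-OHDA lungs the marked cells were more frequent too. With PDAC cells, marked cells were 1.06% ± 0.604 in 6-OHDA-PDAC, 1.22% ± 0.276 in BIBO3304-PDAC and 0.477% ± 0.0516 in vehicle-PDAC. The unmarked cells were 1.11% ± 0.0366 in 6-OHDA-PDAC, 2.43% ± 0.148 in BIBO3304-PDAC and 2.34% ± 0.178 in vehicle-PDAC (SD, n = 2 each). These thinned shares were not tested. Without thinning, marked cells were 0.992% ± 0.123 of all cells with 6-OHDA and 0.76% ± 0.0868 with vehicle (SD, n = 3 each, no overlap, two-sided exact permutation p = 0.1). They were 1.31% ± 0.607 in 6-OHDA-PDAC and 1.003% ± 0.111 in vehicle-PDAC (SD, n = 2 each), with overlap (exact p = 1), and 1.88% ± 0.356 in BIBO3304-PDAC, without overlap with vehicle-PDAC (exact p = 0.33, the smallest possible).

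**Figure D1:**
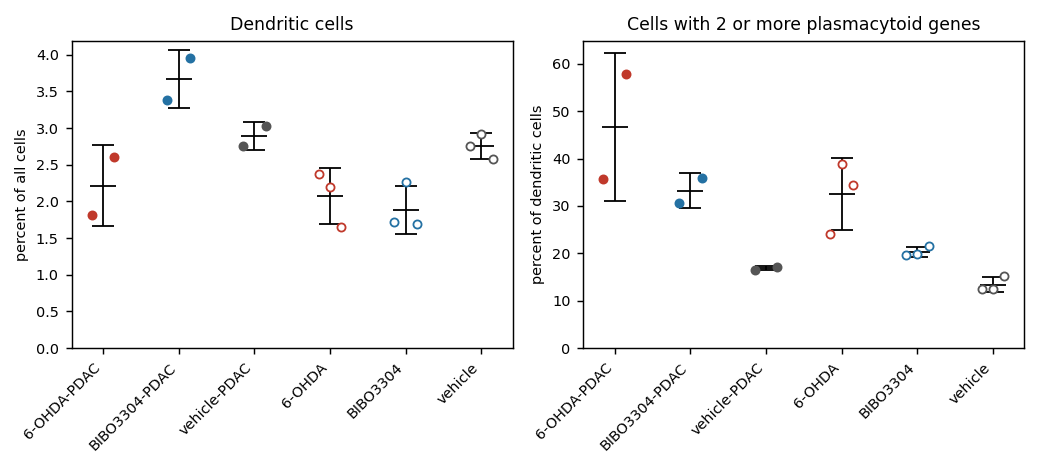
Dendritic cells as percent of all cells and plasmacytoid-marked cells as percent of dendritic cells (500 transcripts a cell, at least 2 of 18 genes), 1 point per sample, with bars for the mean ± SD of each group. All 6-OHDA and BIBO3304 samples lie below the vehicle samples in the first measure, and in the second every drug sample, from 19.7% to 57.8%, lies above every vehicle and vehicle-PDAC sample, from 12.5% to 17.2%, while at 1000 transcripts or with at least 1 gene the BIBO3304 and vehicle-PDAC samples overlap.

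The other types moved less clearly. Cells marked by 2 cDC1 genes were 37.8% ± 6.45 of dendritic cells with 6-OHDA, 47.6% ± 11.003 with BIBO3304 and 36.2% ± 11.01 with vehicle (SD, n = 3 each), with overlap between the groups. They were 27.9% ± 9.22 in BIBO3304-PDAC (SD, n = 2) and 47.6% ± 11.003 in BIBO3304, without overlap (exact permutation p = 0.2, the smallest possible), though these groups overlapped with at least 3 genes or without thinning. Cells marked by 2 maturation genes were 18.02% ± 1.24 in 6-OHDA-PDAC and 13.5% ± 6.57 in 6-OHDA, with overlap. They were 18.6% ± 0.862 in BIBO3304-PDAC and 15.5% ± 0.397 in BIBO3304, without overlap, but the direction turned with the setting. At 1000 transcripts these means were 24.0% in BIBO3304-PDAC and 26.9% in BIBO3304, without thinning 37.4% and 51.7%, and with at least 1 gene 38.9% and 46.9%. For 6-OHDA-PDAC and 6-OHDA the direction also turned with at least 1 gene, at 37.2% and 40.1%. With at least 3 genes required, both PDAC groups lay above their drug alone without overlap. Means were 11.8% in 6-OHDA-PDAC and 4.88% in 6-OHDA, and 10.5% in BIBO3304-PDAC and 6.07% in BIBO3304. Mature-like cells were 16.7% and 16.5% of dendritic cells in 6-OHDA-PDAC and 4.26%, 5.49% and 5.17% in 6-OHDA. They were 12.4% and 17.6% in BIBO3304-PDAC and 2.82%, 5.68% and 5.62% in BIBO3304, a description without a test. The 2 vehicle-PDAC samples differed most in cells marked by 2 maturation genes, at 31.5% and 12.8%, the lower being the sample without annotated cancer cells. Their mature-like shares were 17.6% and 5.78%, against 8.60%, 5.98% and 5.64% in the vehicle samples. Over all samples the marks were found in 35.5% of dendritic cells for cDC1, 17.8% for maturation and 2.96% for cDC2, and in 0.125%, 0.840% and 0.430% of the fibroblasts.

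Gene levels were compared on counts summed over the dendritic cells of each sample, for 5730 genes that passed the filter on low counts. In such sums, fewer cells of a type and less RNA per cell cannot be told apart. A gene counts as changed at an adjusted p below 0.05 in edgeR's quasi-likelihood test with Benjamini-Hochberg adjustment over all 5730 genes. Members of a gene list are called measured below only where they passed the filter on low counts and were tested. Values are CPM scaled by TMM, and SE is given for each log2 fold change.

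After 6-OHDA without PDAC cells, genes of plasmacytoid cells rose. In all, 39 genes rose and 4 fell, 0.75% of those tested, and 5 of the 15 measured plasmacytoid genes were among the risers (Siglech, Tcf4, Runx2, Ccr9 and Pacsin1), while none fell. The median log2 fold change of the plasmacytoid list was 1.28, and over all tested genes such medians lay between -0.01 and 0.04 in every comparison. Siglech, the receptor that defines these cells in the mouse, was at 435, 407 and 447 CPM in the 6-OHDA samples, against 186, 228 and 229.8 CPM in the vehicle samples. Each 6-OHDA sample lay above each vehicle sample (log2 fold change 1.004 ± 0.21, adjusted p = 0.0197). Ccr9, the chemokine receptor that leads plasmacytoid cells to gut and thymus, was at 103, 189 and 140.3 CPM in the 6-OHDA samples, against 43.6, 21.8 and 28.0 CPM in the vehicle samples. Its groups were also apart (log2 fold change 2.14 ± 0.35 SE, adjusted p = 0.00374).

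Pacsin1, an adaptor of membrane trafficking, was at 78.5, 180.4 and 52.0 CPM in the 6-OHDA samples and 17.0, 18.7 and 28.0 CPM in the vehicle samples. The 6-OHDA samples spread widely but none reached down to the vehicle range (log2 fold change 2.25 ± 0.41 SE, adjusted p = 0.0077). Runx2, a transcription factor needed for plasmacytoid cells to leave the bone marrow, was at 501, 705 and 359 CPM in the 6-OHDA samples and 191, 234 and 213 CPM in the vehicle samples (log2 fold change 1.30 ± 0.28 SE, adjusted p = 0.0198). Tcf4 averaged 2259 ± 461 CPM with 6-OHDA and 929 ± 83.4 CPM with vehicle (SD, n = 3 each), and its log2 fold change was 1.28 ± 0.22 (adjusted p = 0.00514). Other risers were St8sia1, a sialyltransferase of ganglioside synthesis (log2 fold change 2.16), Slf2, a DNA repair factor (1.74), Rubcnl, an autophagy regulator (1.71), and the lymphoid transcription factor Ikzf1 (0.95, adjusted p = 0.0416). Of 13 measured cDC1 genes 0 passed (median -0.14), and Xcr1, Flt3 and Ccr7 did not pass, with log2 fold changes of 0.38, 0.24 and -0.20. The count of 43 rested on few samples: it was 2 without vehicle sample 1, 4 without 6-OHDA sample 2, 17 without 6-OHDA sample 1 and 27 without vehicle sample 3.

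The start regions of 3 of these risers are shown because Tcf4, itself a riser, binds E-box motifs and because the genes moved together. Each runs from 250 bases before to 50 bases after the annotated start, from RefSeq on the build GRCm38.p6. The counts were made on another build, mm39, so only the gene name links them. Capitals mark the E-box CAGGTG or its other-strand form CACCTG.
Siglech (chr7:55767934-55768233, plus strand): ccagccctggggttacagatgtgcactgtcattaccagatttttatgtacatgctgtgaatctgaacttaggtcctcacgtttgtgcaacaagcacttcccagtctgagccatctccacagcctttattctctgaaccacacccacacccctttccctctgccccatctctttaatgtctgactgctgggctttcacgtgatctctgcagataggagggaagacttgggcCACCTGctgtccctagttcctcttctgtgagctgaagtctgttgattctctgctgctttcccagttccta
Ccr9 (chr9:123766961-123767260, plus strand): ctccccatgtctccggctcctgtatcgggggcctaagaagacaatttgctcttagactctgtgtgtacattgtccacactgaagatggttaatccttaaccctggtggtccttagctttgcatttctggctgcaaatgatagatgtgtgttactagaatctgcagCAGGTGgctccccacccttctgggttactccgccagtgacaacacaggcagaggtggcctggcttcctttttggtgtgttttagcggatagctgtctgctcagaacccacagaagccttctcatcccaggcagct
Pacsin1 (chr17:27684989-27685288, plus strand): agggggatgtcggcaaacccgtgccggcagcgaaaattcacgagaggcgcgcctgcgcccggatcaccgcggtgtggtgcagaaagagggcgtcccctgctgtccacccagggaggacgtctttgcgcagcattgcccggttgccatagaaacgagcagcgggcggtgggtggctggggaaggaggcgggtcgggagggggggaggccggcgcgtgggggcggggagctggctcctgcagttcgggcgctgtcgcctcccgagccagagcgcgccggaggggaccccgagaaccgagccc
Siglech held the motif 20 bases before its start and Ccr9 85 bases before, while Pacsin1 held none in this window. Of the 39 risers 30 had a sequence in the table, and 9 of these (30%) held the motif, against 899 of 4551 tested genes (19.8%) and 6098 of 27025 genes of the whole table (22.6%). The 61 matched genes that fell in 6-OHDA-PDAC against vehicle-PDAC held it at a like share, 18 genes or 29.5%. A match is a description of letters and not a binding site.

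**Figure D2:**
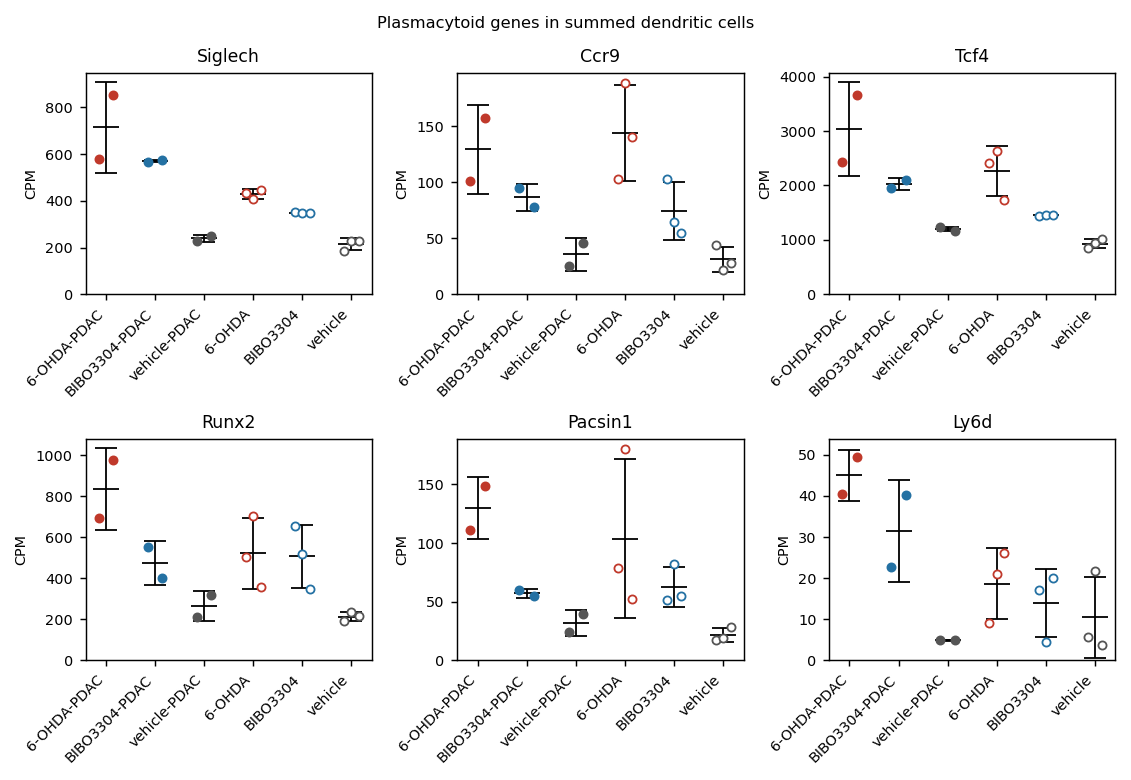
Levels of 6 plasmacytoid genes in summed dendritic cells, in CPM, 1 point per sample, with the mean ± SD of each group. The 6-OHDA and 6-OHDA-PDAC samples lie above their vehicle and vehicle-PDAC samples for Siglech, from 407 to 853 CPM against 186 to 250.2 CPM, and the BIBO3304 samples, at 347 to 351 CPM, lie between 6-OHDA and vehicle.

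These rises went with the larger plasmacytoid share. Of the 39 risers, 38 were at least 2-fold higher in the plasmacytoid-like sub-clusters than in the other dendritic cells, as were 1005 of all 5730 genes (17.5%). When the plasmacytoid-like cells were left out, the median log2 fold change of the risers was 0.43 over the 36 still tested, against 1.41 for the 39 in all dendritic cells, and Siglech stood at 0.36 and Tcf4 at -0.058. Outside those sub-clusters 2 of 5028 genes passed (0.0398%), Il1rap and Mir6236. Within the plasmacytoid-like cells 1 of 2022 genes passed (0.0495%), again Mir6236. Since the sub-clusters were drawn from the same genes, this split is a description. Alveolar macrophage genes moved with the groups too, with 10 genes summing to 194.6 to 299 CPM with 6-OHDA, 176.7 to 219 CPM with BIBO3304 and 343 to 782 CPM with vehicle. Over the 8 tested, their median was -1.49 for 6-OHDA and for BIBO3304 against vehicle, with 0 called. Their part in the result was not tested, and 13 genes passed for 6-OHDA with cells of other lineages left out.

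Il1rap, the shared co-receptor for interleukin 1 and interleukin 33, was the riser that remained outside the plasmacytoid-like cells. Over all dendritic cells it was at 129.8, 126 and 146 CPM in the 6-OHDA samples, against 43.6, 49.9 and 57.9 CPM in the vehicle samples (log2 fold change 1.39 ± 0.29 SE, adjusted p = 0.0175). Outside the plasmacytoid-like cells it was at 153, 181 and 179 CPM in the 6-OHDA samples and 44.1, 56.9 and 56.1 CPM in the vehicle samples (log2 fold change 1.70 ± 0.30 SE, adjusted p = 0.0168). Every 6-OHDA sample was far above every vehicle sample in that set.

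Among the 4 genes that fell, Mir6236 was the most abundant, at 2639, 2827 and 2667 CPM in the 6-OHDA samples and 15370.0, 9876 and 8609 CPM in the vehicle samples (log2 fold change -2.06 ± 0.28 SE, adjusted p = 0.000978). It was the named call that stayed in every fit that left out 1 sample. It fell within plasmacytoid-like cells (-1.42, adjusted p = 0.0495), cDC1-like cells (-2.01, adjusted p = 0.000323) and cDC2-like cells (-2.37, adjusted p = 0.025, 2 samples a group). The same direction was seen in alveolar fibroblasts, at -1.64 ± 0.30 (SE, adjusted p = 0.0783), and interstitial macrophages, at -1.57 ± 0.30 (SE, adjusted p = 0.0507), without passing. The annotated mature sequence is shown because the libraries cannot measure it: its 19 bases, with the seed (bases 2 to 8) in capitals, lie at chr9:110281353-110281371, plus strand, of GRCm38.p6.
mmu-miR-6236: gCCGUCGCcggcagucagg
The counts are of longer polyadenylated or randomly primed RNA assigned to the locus, and the value is uncertain because reads of similar ribosomal RNA copies may be assigned to it. The others that fell were Sdcbp2 (-1.84), Gramd3 (-1.54) and Cox17, a copper chaperone of the respiratory chain (-1.53).

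With PDAC cells, 86 genes rose and 76 fell in 6-OHDA-PDAC against vehicle-PDAC, 2.83% of those tested. Plasmacytoid genes rose again, with 6 of 15 measured members up (Siglech, Ly6d, Ccr9, Pacsin1, Tcf4 and Runx2), none down and a median of 1.53. Siglech was at 578 and 853 CPM in 6-OHDA-PDAC and 228 and 250.2 CPM in vehicle-PDAC (log2 fold change 1.59 ± 0.25 SE, adjusted p = 0.00254). Ly6d, a surface marker of plasmacytoid and B-lineage precursors, was at 40.5 and 49.5 CPM in 6-OHDA-PDAC and 4.82 and 4.94 CPM in vehicle-PDAC (log2 fold change 3.14 ± 0.76 SE, adjusted p = 0.0239). All 6 were apart between the groups, which for called genes with 2 samples a group adds no support. The log2 fold changes of the others were 2.07 for Pacsin1, 1.91 for Ccr9, 1.67 for Runx2 and 1.35 for Tcf4. Other risers were Bcl11a, a transcription factor upstream of Tcf4 (1.42), the receptor chain Il7r (1.62), the signalling protein Rhoh (2.64) and the lysophospholipid receptor Gpr174 (3.16). The 2 comparisons of 6-OHDA share no sample, and 24 genes rose in both, 61.5% of the 39 and 27.9% of the 86.

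The count of 162 fell to 0 without 6-OHDA-PDAC sample 2 and to 61 without vehicle-PDAC sample 1. That 6-OHDA-PDAC sample also had the highest plasmacytoid-marked share of all 15, at 57.8%. Of the 86 risers 76 were at least 2-fold higher in plasmacytoid-like cells, and outside these cells the median of the 68 still tested was 0.91, against 1.61 for the 86 in all. Summed endothelial genes moved with these groups, at 324 to 403 CPM in 6-OHDA-PDAC and 88.5 to 166 CPM in vehicle-PDAC over 6 genes, and Pecam1, an endothelial and myeloid adhesion molecule, rose (1.34). Summed T-cell genes were at 36.5 to 52.2 CPM in 6-OHDA-PDAC and 5.67 to 39.2 CPM in vehicle-PDAC. The part of these cells in the result was not tested, and with cells of other lineages left out 92 genes passed in place of 162.

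Heat-shock genes also rose in 6-OHDA-PDAC. Of 11 measured genes 4 rose (Hspa1a, Hspa1b, Hspa8 and Hsp90aa1), none fell, and the median was 1.44. Hspa1b, a stress-inducible chaperone of the HSP70 family, was at 172 and 164 CPM in 6-OHDA-PDAC and 7.23 and 11.5 CPM in vehicle-PDAC (log2 fold change 4.16 ± 0.85 SE, adjusted p = 0.00809). Its near-identical neighbour Hspa1a, with which it can share reads, was at 86.1 and 52.5 CPM in 6-OHDA-PDAC and 6.02 and 0 CPM in vehicle-PDAC (log2 fold change 4.18 ± 0.91 SE, adjusted p = 0.0118). Both were higher in each 6-OHDA-PDAC sample than in each vehicle-PDAC sample. On the log2 scale, Hsp90aa1, the inducible HSP90, was higher by 1.54 (adjusted p = 0.00809) and Hspa8, the constitutive HSP70, by 1.42 (adjusted p = 0.0449). Without PDAC cells, Hspa1b differed widely between samples of the same group. It had 5, 1 and 48 transcripts in the vehicle samples and 37, 3 and 23 in the 6-OHDA samples.

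Of these 4 genes 3 also passed outside the plasmacytoid-like cells, Hspa1b at 4.88, Hspa1a at 4.67 and Hsp90aa1 at 1.77, among 6 calls in 5028 genes (0.119%). The others there were Fn1, Hdac9 and Stk10. In cDC1-like cells all 5 calls among 2760 genes (0.181%) were heat-shock genes: Hspa1b (7.08, adjusted p = 2.8e-05), Hspa1a (4.91), Hsph1 (4.22), Dnaja1 (2.68) and Hspa8 (1.97). Other cell types moved the same way, with Hspa1b at 4.61 ± 1.15 (SE, adjusted p = 0.0246) in interstitial macrophages, where 3.52% of genes passed, and 4.72 ± 1.12 (SE, adjusted p = 0.0948) in alveolar fibroblasts, where 0.261% passed. The median of the list was 1.05 in interstitial macrophages, with 2 of 11 genes called, and 1.40 in alveolar fibroblasts, with 0 of 12. In BIBO3304-PDAC against vehicle-PDAC the list's median was 1.58 with 0 of 11 called, but within cDC1-like cells Hspa1b (5.32) and Hspa8 (1.92) passed, 2 of 2760 genes (0.0725%). Without PDAC cells, Hsph1 rose in cDC1-like cells after 6-OHDA (2.80, adjusted p = 0.0227), 1 of 2 calls in 2760 genes (0.0725%). The median in summed dendritic cells was 0.77 for 6-OHDA, 0.79 for BIBO3304 and -0.60 for vehicle-PDAC against vehicle.

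**Figure D3:**
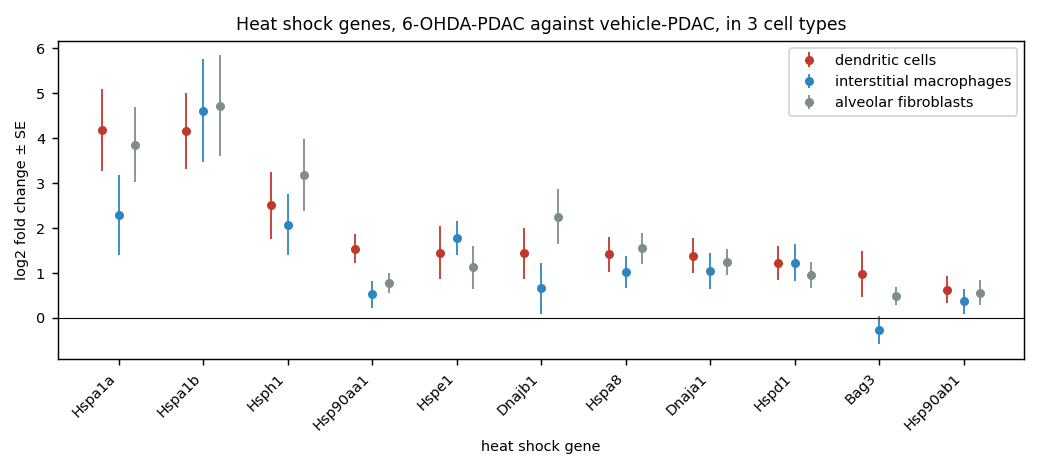
Log2 fold changes of 11 heat-shock genes in 6-OHDA-PDAC against vehicle-PDAC, in dendritic cells, interstitial macrophages and alveolar fibroblasts, with bars for the SE. Genes run along the horizontal axis, and Hspa1b and Hspa1a stand high on the vertical axis in all 3 types, with Hspa1b between 4.16 and 4.72.

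Of the 76 genes that fell in 6-OHDA-PDAC, 65 were at least 2-fold higher outside the plasmacytoid-like cells, as were 17.1% of all genes. That set holds the unnamed sub-clusters as well as the conventional ones. H2-Ob, the inhibitory chain that limits peptide loading of MHC class II, was at 5.07 and 18.5 CPM in 6-OHDA-PDAC and 89.1 and 64.2 CPM in vehicle-PDAC (log2 fold change -2.52 ± 0.48 SE, adjusted p = 0.00551). It was the 1 of 12 measured MHC class II genes that passed, at a list median of -0.79. Kit, the stem cell factor receptor, was at 40.5 and 30.9 CPM in 6-OHDA-PDAC and 128 and 132 CPM in vehicle-PDAC (log2 fold change -1.89 ± 0.40 SE, adjusted p = 0.0104). Both genes were apart between groups, which again adds no support to the calls. Others that fell were Tlr2, the receptor for bacterial lipopeptides (log2 fold change -3.88), Plce1, a phospholipase (-3.17), Cd101, an inhibitory surface protein (-2.68), the adhesion molecule Epcam (-2.55), the protocadherin Pcdh7 (-2.45) and the early response factors Nr4a2 (-2.05) and Nr4a1 (-1.17). Some of these falls rest on very few transcripts in the 6-OHDA-PDAC samples, so their size is uncertain. Tlr2 had 1 and 0 there, Plce1 4 and 2, Cd101 and Epcam 2 and 2 each, and H2-Ob 1 and 6. The cDC1 list had 0 of 13 genes called, with a median of -0.67. Outside the plasmacytoid-like cells the median of all 76 was -1.29, against -1.70 in all dendritic cells, with Stk10, a kinase of lymphocyte migration (-2.03), still called. Fn1, the matrix protein fibronectin, was a riser that did not follow the plasmacytoid genes, at 117 and 263 CPM in 6-OHDA-PDAC and 15.7 and 51.0 CPM in vehicle-PDAC (log2 fold change 2.60 ± 0.55 SE, adjusted p = 0.0104), and it passed outside the plasmacytoid-like cells (3.16). Within plasmacytoid-like cells 2 of 2022 genes passed (0.0989%), Mir6236 (-1.86) and Atg4a, an autophagy protease (-2.51), both lower.

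**Figure D4:**
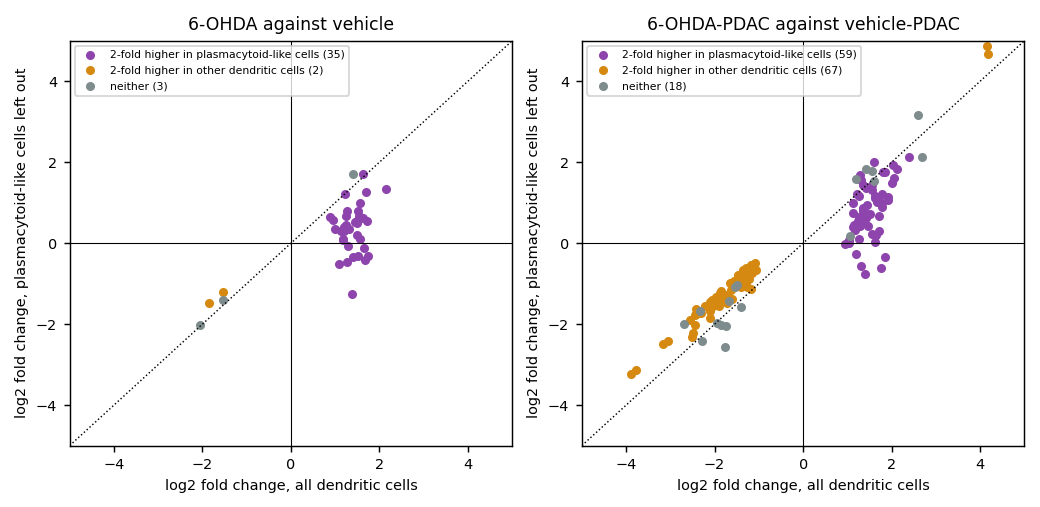
Log2 fold changes in all dendritic cells (horizontal) and in dendritic cells outside the plasmacytoid-like sub-clusters (vertical) for the genes called in 6-OHDA against vehicle and in 6-OHDA-PDAC against vehicle-PDAC, coloured by the cells in which each gene was at least 2-fold higher. Risers of plasmacytoid-like cells fall below the diagonal, with medians over all risers of 1.41 in all cells and 0.43 outside for 6-OHDA, while Hspa1b and Hspa1a lie above it.

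After BIBO3304 without PDAC cells, edgeR called 0 of 5730 genes (0%), with 609 at an unadjusted p below 0.05 and 21 called by DESeq2. The fit gave 17 calls without vehicle-PDAC sample 1 and 18 without vehicle-PDAC sample 2, which share only its estimate of spread. The plasmacytoid list had a median of 0.92 over 15 genes, and -0.35 over the members tested outside the plasmacytoid-like cells. Siglech was at 351, 348 and 347 CPM in the BIBO3304 samples and 186, 228 and 229.8 CPM in the vehicle samples. All 3 BIBO3304 samples lay above the vehicle samples, but the difference did not pass (log2 fold change 0.70, adjusted p = 0.185). The smallest p belonged to Prkca, a protein kinase C that leads a plasmacytoid-like sub-cluster, at 656, 1072 and 710.2 CPM with BIBO3304 and 297, 359 and 405 CPM with vehicle (log2 fold change 1.20 ± 0.22 SE, adjusted p = 0.0801). Slf2 (1.54), Rubcnl (1.72) and Tex2 (1.19), risers after 6-OHDA, were among the next, though both comparisons use the same vehicle samples. No gene passed between 6-OHDA and BIBO3304 either (0%), with 480 at an unadjusted p below 0.05 and 1 called by DESeq2. There, Siglech averaged 429.6 ± 20.6 CPM with 6-OHDA and 348 ± 2.08 CPM with BIBO3304, and the smallest p belonged to Mapre2, a microtubule-binding protein (log2 fold change -1.36, adjusted p = 0.341).

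Within the plasmacytoid-like cells BIBO3304 did give calls, 14 of 2022 genes (0.692%). Mapre2 (2.75), Eml6 (2.74), Slf2 (1.57) and Zmiz1 (1.34) rose. Genes that fell included Cd86, the costimulatory ligand of T cells, at 40.6, 126 and 149.6 CPM with BIBO3304 and 255, 575 and 377 CPM with vehicle (log2 fold change -1.86 ± 0.46 SE, adjusted p = 0.0424). Il1b, encoding interleukin 1 beta, was at 20.3, 0 and 21.4 CPM with BIBO3304 and 186, 316 and 179.7 CPM with vehicle (log2 fold change -4.07 ± 0.94 SE, adjusted p = 0.0255), and the early response factor Junb and the survival factor Mcl1 fell by 2.95 and 2.80 on the log2 scale. The ribosomal protein genes Rps12, Rps29 and Rpl17 were also lower, as were Igf1r and Trps1, and Agpat4 was at 0 in all 3 BIBO3304 samples. These sums rest on 15, 13 and 16 cells in the BIBO3304 samples and 20, 30 and 26 in the vehicle samples. The lowest CPM values therefore stand for very few transcripts. The count was 1 without vehicle sample 1, 2 without BIBO3304 sample 2, 3 without vehicle sample 2, 5 without BIBO3304 sample 3 and at most 10 without any other, and 1 when the sub-clusters were redrawn at a finer resolution.

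With PDAC cells, BIBO3304 again gave 0 calls over all dendritic cells (0%), with 624 at an unadjusted p below 0.05 and 50 by DESeq2. Siglech was at 566 and 574 CPM in BIBO3304-PDAC and 228 and 250.2 CPM in vehicle-PDAC. The groups were far apart, yet the difference did not pass (log2 fold change 1.26 ± 0.25 SE, adjusted p = 0.0661). The plasmacytoid list had a median of 1.26 and 0 of 15 called. Nampt, the enzyme of NAD salvage (1.41), Sertad2 (-1.93) and Tiam1, an activator of Rac (-1.32), followed by p and did not pass either. Those 0 calls became 11 without 6-OHDA sample 3, 8 without vehicle sample 2 and 29 without vehicle-PDAC sample 2. For the difference between the BIBO3304 effects with and without PDAC cells, 0 genes passed (0%), with 626 at an unadjusted p below 0.05, 31 by DESeq2 and 63 without vehicle-PDAC sample 2.

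For PDAC cells without a drug, vehicle-PDAC against vehicle gave 0 calls of 5730 (0%), 181 at an unadjusted p below 0.05 and 0 by DESeq2, and 1 call without vehicle-PDAC sample 2. That sample held 0 annotated cancer cells and the other 56, so the 0 calls do not show that PDAC cells left dendritic cells unchanged. Siglech was at 228 and 250.2 CPM in vehicle-PDAC and 186, 228 and 229.8 CPM in vehicle, and the plasmacytoid list had a median of 0.16. The maturation list had a median of 0.52 with 0 of 12 called. Its member Fscn1 was at 252 and 122 CPM in vehicle-PDAC and 109.8, 46.8 and 37.4 CPM in vehicle, and the spread between the 2 vehicle-PDAC samples was wide for it (log2 fold change 1.51 ± 0.40 SE, adjusted p = 1).

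Ccr7, the receptor of migrating mature cells, was higher in BIBO3304-PDAC than in BIBO3304. It was at 546 and 612 CPM in BIBO3304-PDAC and 137, 86.9 and 146 CPM in BIBO3304. Both PDAC samples were far above the highest sample without (log2 fold change 2.24 ± 0.37 SE, adjusted p = 0.0108). It was the called member of the 12 measured maturation genes there, whose median was 0.51. Outside the plasmacytoid-like cells the log2 fold change of Ccr7 was 2.48 (adjusted p = 0.0023), 1 of 2 calls (0.0398%). In 6-OHDA-PDAC Ccr7 was at 654 and 507 CPM, against 142, 147 and 296 CPM in 6-OHDA, which did not pass over all dendritic cells (log2 fold change 1.60 ± 0.38 SE, adjusted p = 0.0871). It passed outside the plasmacytoid-like cells (1.97, adjusted p = 0.0195), with Fscn1 (2.41), Mreg (3.41), Oasl1, the kinase Yes1 (2.80), Wwox (-2.01) and Il1rap (-2.55), 7 of 5028 genes (0.139%). The maturation list had a median of 1.24 in all dendritic cells and 1.61 outside the plasmacytoid-like cells in that comparison. Without a drug the groups overlapped for Ccr7, at 411 and 118 transcripts in the vehicle-PDAC samples and 168, 57 and 85 in the vehicle samples. On the CPM scale vehicle-PDAC sample 1 lay above every vehicle sample. Sample 2, with 0 annotated cancer cells, lay among them. The part of the mature-like share, given above, in these Ccr7 differences was not tested.

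Over all dendritic cells 2 genes rose and 8 fell in 6-OHDA-PDAC against 6-OHDA, 0.175% of those tested. Mreg, melanoregulin, which marks mature dendritic cells, was at 294 and 624 CPM in 6-OHDA-PDAC and 78.5, 41.9 and 57.2 CPM in 6-OHDA (log2 fold change 2.94 ± 0.52 SE, adjusted p = 0.0158). Oasl1, an interferon-induced repressor of Irf7 translation, was at 157 and 49.5 CPM in 6-OHDA-PDAC and 0, 4.19 and 0 CPM in 6-OHDA (log2 fold change 5.92 ± 1.05 SE, adjusted p = 0.0158). It was nearly absent from the 6-OHDA samples, while the list of other interferon-induced genes had 0 called among 8 that could be tested and a median of 0.70. Among the genes that fell were Hepacam2 (-2.25), a gene that leads a cDC1-like sub-cluster, Timd4, a receptor for phosphatidylserine on dying cells (-1.84), and the lysosomal sulfatase Arsb (-1.62). The count of 10 was 1 without 6-OHDA-PDAC sample 2, 4 without 6-OHDA-PDAC sample 1, 6 without 6-OHDA sample 1, 19 without 6-OHDA sample 2, 20 without vehicle-PDAC sample 1 and 19 without vehicle-PDAC sample 2.

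In BIBO3304-PDAC against BIBO3304, 19 genes rose and 58 fell, 1.34% of those tested. Besides Ccr7, the risers included the chemokine Ccl4 (1.99), the interferon-induced tetherin Bst2, a surface marker of plasmacytoid cells (1.55), the nucleotide hydrolase Samhd1 (1.55), the vitamin D receptor Vdr (1.98) and the matrix protein Mgp (2.40). Of 70 measured ribosomal protein genes 4 rose, with a median of 0.67. Il1a, encoding interleukin 1 alpha, was at 20.7 and 8.62 CPM in BIBO3304-PDAC and 433, 35.6 and 60.1 CPM in BIBO3304 (log2 fold change -3.43 ± 0.83 SE, adjusted p = 0.0424), with BIBO3304 sample 1 far above the rest. Others that fell were Tnip3, an inhibitor of NF-kappaB signalling (-1.84), Arsb (-1.77), Cd101 (-1.86), Kit (-1.42), the proliferation marker Mki67 (-1.19) and the early response factor Fosb (-1.03). Of the 58 that fell, 51 were at least 2-fold higher outside the plasmacytoid-like cells, and their median was -1.24 there, against -1.37 in all dendritic cells.

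Alveolar macrophage genes moved with these groups, with the summed level of 10 genes at 448 to 541 CPM in BIBO3304-PDAC and 176.7 to 219 CPM in BIBO3304, a list median of 1.65 and 0 of 8 measured genes called. Their part in the result was not tested, and with cells of other lineages left out 25 genes passed in place of 77. The count was 0 without BIBO3304-PDAC sample 2, 7 without BIBO3304-PDAC sample 1, 9, 13 and 12 without BIBO3304 samples 1, 2 and 3, 10 without vehicle sample 1 and 30 without 6-OHDA-PDAC sample 2. It was 153 without vehicle-PDAC sample 1 and 153 without vehicle-PDAC sample 2.

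Il1rap was the 1 of 5730 genes (0.0175%) called for a difference between the 6-OHDA effects with and without PDAC cells. With PDAC cells it was at 30.4 and 27.8 CPM in 6-OHDA-PDAC and 125 and 85.6 CPM in vehicle-PDAC (log2 fold change -1.87 ± 0.40 SE, adjusted p = 0.0104). The 6-OHDA-PDAC values stand for 6 and 9 transcripts, so the size of this fall is uncertain. Without PDAC cells Il1rap was higher after 6-OHDA, at the values given above. The difference between these effects was -3.26 ± 0.49 (SE) on the log2 scale, with an adjusted p of 0.00482, and ran from -3.56 to -3.01 when samples were left out, losing the call without 6-OHDA-PDAC sample 2. That test had 0 calls then, 2 without 6-OHDA-PDAC sample 1 and 3 without vehicle-PDAC sample 1. The BIBO3304-PDAC samples stood at 37.2 and 40.2 CPM and the BIBO3304 samples at 72.2, 57.9 and 117 CPM, without overlap. Across the 6 groups, 6-OHDA without PDAC cells was highest and 6-OHDA-PDAC lowest.

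**Figure D5:**
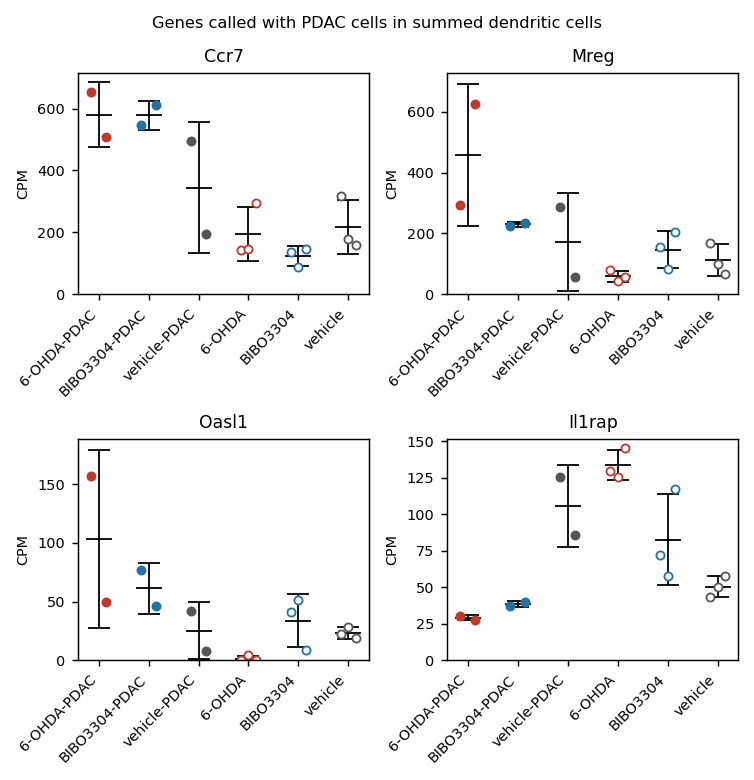
Levels of Ccr7, Mreg, Oasl1 and Il1rap in summed dendritic cells, in CPM, 1 point per sample, with the mean ± SD of each group. Ccr7 is above 500 CPM in all 4 drug-treated samples with PDAC cells and below 300 CPM in the 6 drug-treated samples without. Vehicle-PDAC sample 1 lies just under 500 CPM for Ccr7, above every vehicle sample. Vehicle-PDAC sample 2, which held 0 annotated cancer cells, lies among the vehicle samples. Il1rap is highest in the 6-OHDA samples, at 126 to 146 CPM.

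Separate sums of the smaller sub-clusters gave few calls. The cDC2-like sums were fitted with 2 samples in each group compared, of 10 to 14 cells each, since the third sample of each had fewer than 10 such cells. In them, 3 of 1198 genes passed for 6-OHDA against vehicle (0.25%), Cpeb2, a translation regulator (4.35), Mir6236 and Stat4, the transcription factor of interleukin 12 signalling (-4.47), and the count was 0 without 6-OHDA sample 1 and 13 without 6-OHDA sample 2. For 6-OHDA against BIBO3304, 2 passed (0.167%), among them Stat4 (-4.58), with 0 calls without BIBO3304 sample 1 and 8 without 6-OHDA sample 2. In cDC1-like cells, BIBO3304-PDAC against BIBO3304 gave 2 of 2760 (0.0725%), mt-Nd4 and Rps12. In mature-like cells 900 genes could be tested in 3 comparisons and none passed, with 32, 47 and 32 at an unadjusted p below 0.05.

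Receptors for neuropeptide Y were scarce in dendritic cells. Npy1r, the target of BIBO3304, had 0 of 6426835 dendritic cell transcripts, a count that allows up to 3, while smooth muscle cells and pericytes had 42.6 CPM. Npy2r had 2 transcripts and Npy5r 1. Of the adrenergic receptors, Adrb1 had 29 transcripts and Adra1a 27, against 478 CPM of Adra1a in alveolar fibroblasts. Dpp4, the peptidase that trims neuropeptide Y, was well measured, with 1006 transcripts (157 CPM) in all 15 samples, and ranked 3rd among the types.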

How the data were processed

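Lung cells of mice were barcoded with Parse Evercode WT v3 after a live-cell sort, per the labels' protocols. The authors deposited transcript counts for each gene in each cell, without normalisation, and a table of each cell's sample, treatment, seeding state, type and percent of mitochondrial transcripts, which the authors computed. The submitters' processing notes name Seurat 5.3.0 and the mouse build mm39. Aligner, counter and cell filters: not given in the sources used here. Groups came from the deposited table, since the 16 GEO entries are sublibraries. Its seeding state is written IV and was taken to mean seeded PDAC cells, as 308 of 312 annotated cancer cells came from such samples.

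Counts were summed over each sample's dendritic cells. Genes were filtered with filterByExpr, scaled by TMM and fitted over all 6 groups by quasi-likelihood in edgeR 4.0.16 (R 4.3.3), with Benjamini-Hochberg adjustment over all genes of a fit and a threshold of 0.05. Cell shares used the same model, beside two-sided exact permutation tests. The shares of marked cells came from cells thinned to 500 transcripts. Sub-clusters were drawn with scanpy 1.11.5 from 2000 variable genes, 20 components, 15 neighbours and resolution 0.5. They were named after seeing the data, where at least 3 genes of a list were 1.5-fold higher than in other dendritic cells at 20 CPM or more, and those of 1 name were summed. Doublets were not called, and cells with at least 3 genes of another lineage were left out as an alternative. Python 3.11.15 with numpy 2.4.6, scipy 1.17.1, pandas 2.3.3 and matplotlib 3.10.9 was used. The procedure was tested on simulated data.

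Named genes were the 10 genes that rose most and the 10 that fell most among called genes averaging 20 CPM or more, without predicted, ribosomal, mitochondrial and immune receptor variable genes, members of the lists that passed, and the defining markers. Where fewer than 8 passed, the 5 with the smallest p were taken. Genes named within sub-clusters, receptors and genes said to be listed at 0 were picked with their values in view, as was Il1rap in comparisons where the rule does not name it. The members, lists and tests were chosen with earlier results of these data known. Alternatives were RLE scaling, no gene filter, DESeq2 1.42.0, a term for the sample number, a fit of the compared groups alone, other cell sets and resolutions, and leaving out each sample. Sample numbers do not pair the samples. A few genes are not reported here. Intervals and floors cover counting error only.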

Additional observations from a re-analysis of the deposited data

Results flagged for a closer look

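Il1rap drew attention because its response to 6-OHDA in dendritic cells differed with and without PDAC cells by a test of that difference. The difference was -3.26 on the log2 scale (edgeR, 1 of 5730 genes). With PDAC cells Il1rap was lower after 6-OHDA and without PDAC cells higher. The 6-OHDA-PDAC samples held only 6 and 9 transcripts of it, so the size is uncertain.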

How the results depend on the processing

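Counts of called genes are given in the order 6-OHDA against vehicle, BIBO3304 against vehicle, 6-OHDA against BIBO3304, 6-OHDA-PDAC against vehicle-PDAC, BIBO3304-PDAC against vehicle-PDAC, vehicle-PDAC against vehicle, 6-OHDA-PDAC against 6-OHDA, BIBO3304-PDAC against BIBO3304, then the 6-OHDA and BIBO3304 interactions with PDAC cells. With no filter on low counts they were 97, 51, 17, 303, 71, 6, 66, 203, 12 and 53. DESeq2 gave 65, 21 and 1 for the first 3, then 50 for BIBO3304-PDAC against vehicle-PDAC, 36 for 6-OHDA-PDAC against 6-OHDA, 192 for BIBO3304-PDAC against BIBO3304 and 31 for the BIBO3304 interaction. With a replicate block (the sample number as a term) they were 70 and 18 for 6-OHDA and BIBO3304 against vehicle, 260 and 42 for 6-OHDA-PDAC and BIBO3304-PDAC against vehicle-PDAC, 23 and 135 for the drug groups with PDAC cells against those without, and 21 for the BIBO3304 interaction. The numbers share no origin in the labels, and 7 of 33 same-number pairs had a correlation of deviations over 0.1 (range -0.0566 to 0.259). A fit of the compared groups alone gave 37 for BIBO3304 against vehicle and 231 for BIBO3304-PDAC against BIBO3304. Without cells of other lineages the counts were 13 for 6-OHDA against vehicle, 92 for 6-OHDA-PDAC against vehicle-PDAC and 25 for BIBO3304-PDAC against BIBO3304. Without cells that held 2 plasmacytoid genes they were 2 for 6-OHDA against vehicle, 8 for 6-OHDA-PDAC and 2 for BIBO3304-PDAC against vehicle-PDAC, 5 for 6-OHDA-PDAC against 6-OHDA, 7 for BIBO3304-PDAC against BIBO3304 and 4 for the 6-OHDA interaction. Without the plasmacytoid-like sub-clusters they were 2, 6 and 2 for 6-OHDA against vehicle, 6-OHDA-PDAC against vehicle-PDAC and BIBO3304-PDAC against BIBO3304. At resolution 0.3, plasmacytoid-like cells gave 0 for 6-OHDA against vehicle and 1 for 6-OHDA-PDAC against vehicle-PDAC, and cDC1-like cells 1 and 8 for these, 0 for BIBO3304-PDAC against vehicle-PDAC and 0 against BIBO3304. At resolution 1.0, plasmacytoid-like cells gave 1 for BIBO3304 against vehicle, and cDC1-like cells 0 for both BIBO3304-PDAC comparisons. With at least 20 cells a sample, plasmacytoid-like cells gave 3 for 6-OHDA-PDAC against 6-OHDA. The cause of these shifts was not tested. Leaving out each sample in turn gave ranges of 2 to 64, 0 to 18, 0 to 0, 0 to 216, 0 to 29, 0 to 1, 1 to 20, 0 to 153, 0 to 3 and 0 to 63 for the 10 counts in the order above. In plasmacytoid-like cells the ranges were 0 to 1, 1 to 10 and 0 to 1 without PDAC cells, 0 to 3 for 6-OHDA-PDAC against vehicle-PDAC, 0 to 2 against 6-OHDA and 0 to 2 for BIBO3304-PDAC against BIBO3304. In cDC1-like cells they were 1 to 3, 0 to 2 and 0 to 2 without PDAC cells, 1 to 6 and 0 to 3 for 6-OHDA-PDAC and BIBO3304-PDAC against vehicle-PDAC, and 0 to 2 for each against its drug alone. In mature-like cells they were 0 to 2, 0 to 2 and 0 to 1, and in cDC2-like cells 0 to 13, 0 to 2 and 0 to 8 without PDAC cells. For the dendritic cell share (log2), leaving alveolar macrophages out of the denominator gave -0.96 for BIBO3304 against vehicle (now past the threshold), -0.063 for 6-OHDA-PDAC against 6-OHDA and -0.14 for the 6-OHDA interaction, and immune cells as denominator gave -0.17 for 6-OHDA against BIBO3304 and 0.38 for BIBO3304-PDAC against BIBO3304. Leaving out samples gave -0.19 to 0.33 for 6-OHDA-PDAC against 6-OHDA, -0.26 to 0.25 for the 6-OHDA interaction and 0.84 to 1.11 for BIBO3304-PDAC against BIBO3304. With 3 plasmacytoid genes required, the marked share of vehicle-PDAC minus vehicle was -1.05 percentage points. Single genes that changed sign (log2 fold changes) were mostly uncalled. Flt3 in BIBO3304-PDAC against BIBO3304 was -0.028 with RLE, -0.071 with no filter, -0.052 with the replicate block, -0.028 with DESeq2 and -0.0025 without cells of other lineages, and Xcr1 in vehicle-PDAC against vehicle was 0.031 with the block. Without cells of 2 plasmacytoid genes, Ccr7 was 0.067 in 6-OHDA and Prkca -0.31 in BIBO3304 against vehicle, Flt3 -0.12 and Xcr1 0.018 in 6-OHDA-PDAC and BIBO3304-PDAC against vehicle-PDAC, and Flt3 -0.22 in 6-OHDA-PDAC against 6-OHDA. Without the plasmacytoid-like sub-clusters, 6-OHDA against vehicle gave Slf2 -0.32, Atosa -0.41, Carmil1 -0.11, Tcf4 -0.058 and Ccr7 0.17, and Siglech was -0.13 in BIBO3304 and -0.72 in vehicle-PDAC against vehicle. Leaving out samples, Flt3 ran from -0.13 to 0.093 in BIBO3304-PDAC against BIBO3304, -0.27 to 0.052 in BIBO3304 against vehicle, -0.18 to 0.75 in 6-OHDA-PDAC and -0.72 to 0.16 in BIBO3304-PDAC against vehicle-PDAC, -0.20 to 0.58 in 6-OHDA-PDAC against 6-OHDA and -0.27 to 0.61 in vehicle-PDAC against vehicle. Xcr1 ran from -0.11 to 0.80 in 6-OHDA against vehicle, -0.35 to 0.57 against BIBO3304 and -0.27 to 0.093 in vehicle-PDAC against vehicle, and Ccr7 from -0.60 to 0.17 in 6-OHDA and -0.16 to 1.20 in vehicle-PDAC against vehicle. Of 87 called results for named genes, 1 kept its call in all 15 fits, Mir6236 after 6-OHDA without PDAC cells, and none reversed there. Without cells of other lineages 45 of these 87 no longer passed and none reversed. At 58 to 277 cells a sample, genes under the filter were not testable.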
